A study of Mus musculus with 22 samples.

Results

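The 36 genes described here are those that carry glucose into the cell and on to lactate, and those that sense or answer low oxygen. They were taken from a list of gene symbols, and all 36 were found among the 31116 genes that the monocyte and the macrophage count tables share. All 36 also passed the filter on low counts in the fits reported here, among 22353 genes tested in monocytes and 20944 in macrophages, members included.

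Gene counts came from RNA-seq of sorted mouse lung cells in a model of acute injury and inflammation that starts in the alveolar epithelium. Ly6Chi monocytes (CD11b+Ly6Chi) were sampled in control mice (n = 4), at 3 d (n = 4) and at 14 d (n = 4). Alveolar macrophages (SigF+CD11b-) were sampled in control mice (n = 4), at 3 d (n = 3) and at 14 d (n = 3). All 22 samples are labelled as SP-CI73T mutant, on a C57BL/6 background, so controls carry the mutant surfactant protein C allele too. The study used adults of both sexes that carry the allele on both chromosomes, together with an inducible Flp-O recombinase at Rosa26. The injury groups were given tamoxifen by a single gavage, which per the labels removes a neomycin cassette and raises expression of the mutant gene. Surfactant protein C is made by alveolar type 2 cells and not by the cells sequenced. The labels call the controls untreated, while the study's text describes oil-treated mutants, in its methods pooled with tamoxifen-treated mice that lack Flp-O, and which of these a control library came from is not given in the sources used here. Nothing says which mouse each sample came from, so the p-values measure the spread between samples, which may in part be technical.

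Glycolysis turns glucose into pyruvate in the cytosol, and lactate dehydrogenase and the lactate transporters let it run on when oxygen is short or demand is high. Many of these genes are classic targets of the hypoxia-inducible factors: prolyl hydroxylases mark HIF-1α for destruction while oxygen is present, and when they slow down HIF-1 binds a short core motif near genes for glucose uptake, glycolysis, mitophagy, collagen hydroxylation and vessel growth. In macrophages and monocytes HIF-1α can also be raised by inflammatory signals, and inflamed cells are known for a high glycolytic rate.

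The core of the HIF binding motif, ACGTG or GCGTG, was looked for on both strands in the 250 bases before each gene's start in RefSeq (build GRCm38.p6). A window was found for 33 of the 36 genes, and *Bnip3l*, *Ndrg1* and *Slc2a3* had none. At least 1 motif stood in the first window of 26 of these 33 genes (78.8%), against 38.6% of the first windows of 27025 genes. Among windows with over 50% G and C the shares were 79.3% of 29 and 52.4% of 15325. The palindrome CACGTG, which other factors also bind and which holds an ACGTG on each strand, was in 5 of the 33 (15.2%, against 6.05% of all). A match is a run of letters and not a measured binding site. The windows of 5 genes that the results return to are shown 5′ to 3′ on the gene's own strand, with each match on either strand in capitals. *Egln3* and *Pgk1* were higher in macrophages at 14 d, *Slc16a1* and *Eno2* were higher at 14 d in both cell types, and *P4ha1* was called lower in both.
Egln3 (chr12:54203875-54204124, minus strand): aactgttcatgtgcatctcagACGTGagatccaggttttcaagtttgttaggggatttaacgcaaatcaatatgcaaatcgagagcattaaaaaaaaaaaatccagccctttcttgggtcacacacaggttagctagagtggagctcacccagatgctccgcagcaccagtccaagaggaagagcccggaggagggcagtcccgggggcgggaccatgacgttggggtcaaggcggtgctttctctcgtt
Pgk1 (chrX:106186850-106187099, plus strand): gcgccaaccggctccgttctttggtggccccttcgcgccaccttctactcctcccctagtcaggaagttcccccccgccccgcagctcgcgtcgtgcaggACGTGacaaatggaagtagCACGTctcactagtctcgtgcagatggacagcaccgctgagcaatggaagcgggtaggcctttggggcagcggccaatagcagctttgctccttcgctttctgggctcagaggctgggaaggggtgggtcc
Slc16a1 (chr3:104638414-104638663, plus strand): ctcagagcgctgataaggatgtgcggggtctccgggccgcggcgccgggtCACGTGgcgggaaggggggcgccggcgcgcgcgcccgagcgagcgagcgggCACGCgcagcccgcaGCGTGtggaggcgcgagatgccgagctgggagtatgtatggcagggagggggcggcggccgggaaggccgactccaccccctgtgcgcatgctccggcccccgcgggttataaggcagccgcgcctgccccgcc
Eno2 (chr6:124769674-124769923, minus strand): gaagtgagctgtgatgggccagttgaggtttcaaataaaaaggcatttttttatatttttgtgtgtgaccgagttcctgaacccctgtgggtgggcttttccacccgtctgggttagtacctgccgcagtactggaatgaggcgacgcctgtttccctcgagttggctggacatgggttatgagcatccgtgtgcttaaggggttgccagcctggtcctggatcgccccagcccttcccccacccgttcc
P4ha1 (chr10:59323046-59323295, plus strand): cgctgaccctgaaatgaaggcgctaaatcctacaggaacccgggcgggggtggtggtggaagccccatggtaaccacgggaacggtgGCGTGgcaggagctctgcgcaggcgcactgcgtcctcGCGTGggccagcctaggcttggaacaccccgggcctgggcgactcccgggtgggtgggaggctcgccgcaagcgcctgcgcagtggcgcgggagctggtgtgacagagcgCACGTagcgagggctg
The *Slc16a1* window held 4 motifs, a pair of them in 1 CACGTG, the *P4ha1* window 3, the *Pgk1* window 2 and the *Egln3* window 1. The *Eno2* window held 0, which says only that these letters are not in these 250 bases.

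Gene counts summed to between 15451460 and 28789639 per monocyte library and between 4610720 and 17074863 per macrophage library, lowest at 14 d in macrophages (4610720 to 6838893). Genes that define the sorted cells were present, although several genes of each list were lower at 14 d. *Ly6c2* was at 1314 to 3459 CPM (counts scaled to the size of the library, with TMM factors) in all monocyte libraries and 1.18 to 6.19 in macrophages, and *Siglecf* at 90.0 to 348 in macrophages and at most 29.2 in monocytes. At 14 d, 7 of 10 alveolar macrophage markers were called lower in macrophages (median log2 fold change -1.07, *Siglecf* and *Itgax* among them, with a sum of 27553 to 32611 CPM in control and 22641 to 28663 at 14 d). In monocytes 4 of 7 monocyte markers were lower at 14 d, with sums of 10736 to 15374 and 6585 to 8871 CPM, and 3 of 7 at 3 d (8069 to 10304). Markers of other cells moved with the groups. The shares of all genes tested called higher and lower were 39.4% and 22.9% in macrophages at 14 d and 1.05% and 0.224% at 3 d. In monocytes they were 3.22% and 5.34% at 14 d and 36.8% and 14.4% at 3 d. In macrophages at 14 d, 77.9% of genes with a mean log2 CPM under 1 were higher, and 47.8% of those above 5 lower. In macrophages at 14 d, 4 of 4 eosinophil markers were higher (summed 0.664 to 1.90 CPM in control, 28.4 to 107 at 14 d). So were 5 of 5 fibroblast markers (16.2 to 22.1, against 151 to 331). Of 7 neutrophil markers tested 6 were higher and 1 lower (115 to 231, against 450 to 1741). Of 5 endothelial markers 4 were higher (8.67 to 18.2, against 35.3 to 47.5). At 3 d in macrophages, epithelial markers summed to 647 to 967 CPM, against 241 to 348 in control, with 1 of 7 called higher and 1 lower. The integrin *Itgam* (CD11b), against which these cells were sorted, was at 0.725 to 2.66 CPM in control and 55.0 to 102 at 14 d. In monocytes, T and NK markers summed to 168 to 721 CPM in control and 14.3 to 21.8 at 14 d, with 4 of 7 called lower. The haemoglobin genes summed to 209.9 to 4293 and 3.55 to 95.6 CPM, with 2 of 4 called lower, and 4 of 4 B cell markers were lower (73.6 to 106, against 23.4 to 48.1). The alveolar macrophage markers summed higher in monocytes at 14 d without overlap (8515 to 15469 CPM in control, 15836 to 21326), most of it *Chil3*, which was called higher, while *Fabp1* and *Ear1* were lower and 7 of the 10 were not called. At 3 d in monocytes, 7 of 10 alveolar macrophage markers (4426 to 9100 CPM), 5 of 7 T and NK markers (10.3 to 124), 4 of 4 B cell markers (27.9 to 44.7) and 4 of 4 haemoglobin genes (10.8 to 369) were lower. Of 8 neutrophil markers 3 were higher and 1 lower there (553 to 849 CPM in control, 474 to 1587 at 3 d), beside 36.8% and 14.4% of all genes tested. The part of such RNA in the results was not tested. In bulk samples, a change in the share of cells with an RNA and a change in RNA per cell cannot be told apart. *Xist* was at 552 to 4444 counts in every control and 3 d library and at 1 to 32 in every 14 d library, and the Y-linked genes went the other way, so sex and the 14 d time point cannot be told apart in either cell type.

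Weakly expressed genes moved as a body in 2 of the groups, and this sets how the members are read. Genes with at least 1 count numbered 24775 to 30865 per library in monocyte controls and 40119 to 41134 at 3 d, and 21951 to 27616 in macrophage controls and 27699 to 30627 at 14 d. Genes with a mean log2 CPM under 1 had a median log2 fold change of 2.66 in monocytes at 3 d and 2.96 in macrophages at 14 d, against controls, while genes above 5 had medians of -0.55 and -0.56. The median over all genes was 0.22 and 0.18, and with scaling factors taken from the abundant genes alone it was 0.74 and 0.73. The share of all calls that were higher moved from 71.8% to 95.7% in monocytes at 3 d and from 63.3% to 89.0% in macrophages at 14 d. Calls are therefore described as kept when they held under all 4 other scalings tried, which were library size, upper quartile, DESeq2's median ratio and TMM from abundant genes. In these 2 contrasts all 4 raised the median of all genes, to between 0.36 and 0.74 and to between 0.35 and 0.73. A higher call is kept more easily there than a lower one. The same holds in macrophages between 3 d and 14 d and for the 14 d interaction. In monocytes between 3 d and 14 d all 4 lowered the median, which favours lower calls.

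Members were called higher or lower when the adjusted p was below 0.05 and the fold exceeded 1.5. In alveolar macrophages at 14 d, 14 of the 36 members were higher than control and 5 lower, beside 39.4% and 22.9% of all genes tested (62.3% either way). The 14 that rose were all kept, under scalings that favour higher calls, and of the 5 lower only *Bnip3l* was. With TMM from abundant genes the split was 22 higher and 1 lower. At 3 d, *Slc2a3*, *Ndrg1* and *Ddit4* were higher in macrophages and all 3 were kept, beside 1.05% of all genes (1.27% either way). No member was called lower at 3 d by edgeR, beside 0.224% of all genes, although 2 were lower at an unadjusted p below 0.05 and 0 were called lower by DESeq2.

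In Ly6Chi monocytes at 14 d, 7 members were higher and 6 lower than control, beside 3.22% and 5.34% of all genes (8.56% either way). Of these, 6 higher and 2 lower calls were kept, and by library size the split was 10 higher and 2 lower. With the replicate number as a block, 8 were higher and 3 lower. At 3 d, 2 were higher and 10 lower, beside 36.8% and 14.4% (51.2% either way). Abundant genes were more often lower. Above a mean log2 CPM of 5, 7 of 21 members were lower, beside 42.4% of all genes of that level. From 3 to 5 it was 3 of 7, beside 24%. Both higher calls (*Eno2* and *Egln3*) and 2 of the 10 lower calls were kept (*P4ha1* and *Ddit4*), and with TMM from abundant genes the split was 4 higher and 2 lower. Median log2 fold changes over the 36 members were 0.39 in macrophages at 14 d, 0.27 at 3 d, 0.23 in monocytes at 14 d and -0.22 at 3 d, against 0.18, -0.01, 0.09 and 0.22 over all genes tested. The monocyte 3 d median was above 0 under 3 of the 4 other scalings, at 0.30 with TMM from abundant genes. Both time points of a cell type share its control libraries. Libraries did not overlap with control for 23 of the 36 members in macrophages at 14 d (70.8% of all genes tested) and 7 at 3 d (14%). In monocytes this held for 15 at 14 d (13.7%) and 10 at 3 d (51.2%). Between 3 d and 14 d it held for 14 in macrophages (65.5%) and 17 in monocytes (51.4%). A lack of overlap in a single member is to be read beside these shares.

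**Figure D1:**
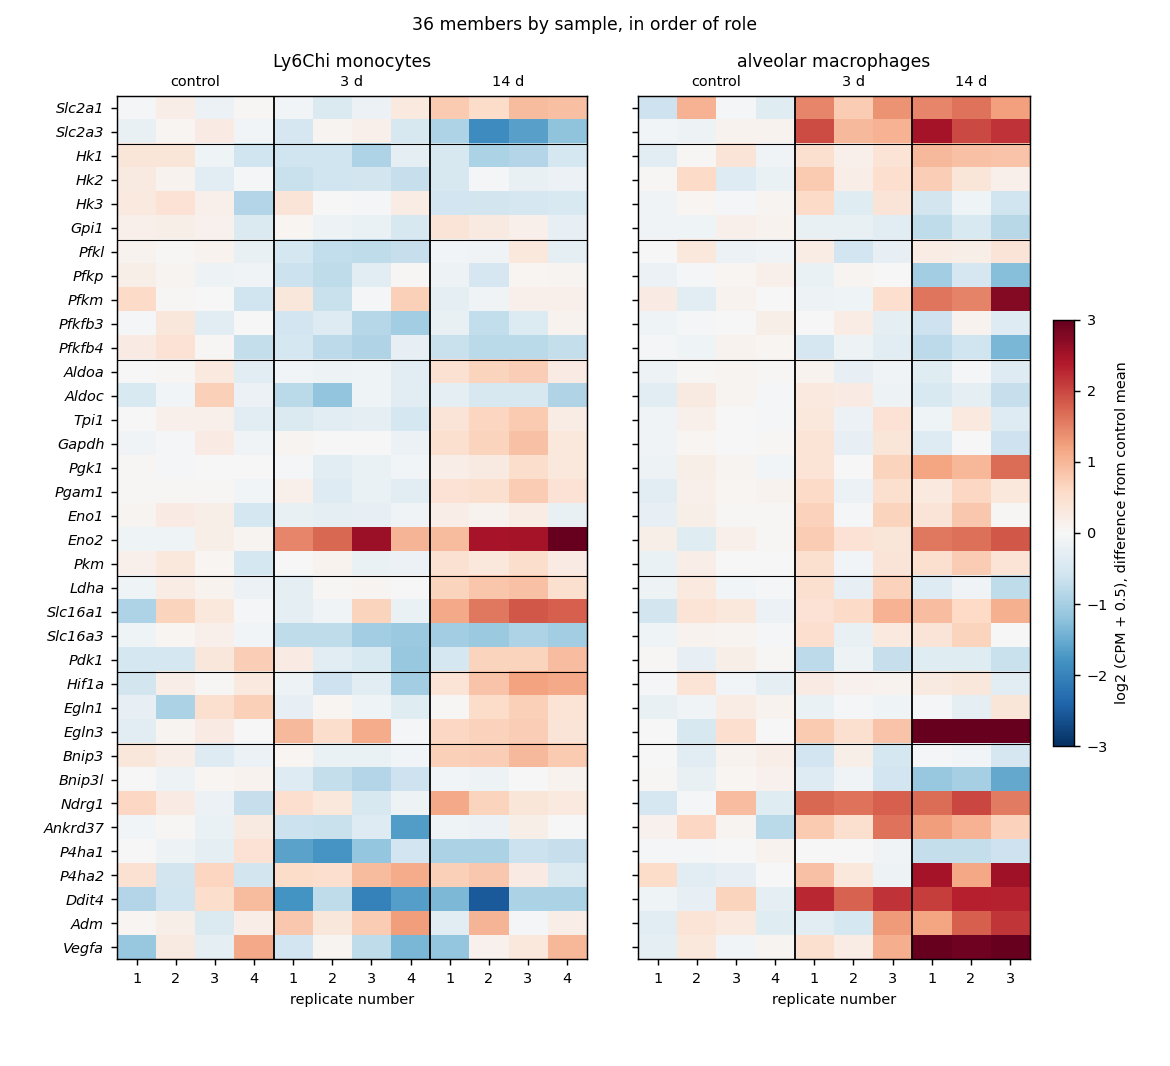
Each of the 36 members (rows, in order of role) in each of the 22 libraries (columns, by cell type, group and replicate number), coloured by log2(CPM + 0.5) minus the mean of the cell type's control libraries, with colours capped at 3 either way. Macrophages at 14 d show dark rows for *Egln3* and *Vegfa*, and macrophages at 3 d already show *Slc2a3*, *Ndrg1* and *Ddit4*. In monocytes at 3 d most rows are near or below control under this scaling, and 2 of the 10 lower calls there were kept under others.

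Of the glucose carriers, *Slc2a1* rose in both cell types at 14 d, while *Slc2a3* rose in macrophages and fell in monocytes. *Slc2a1* encodes GLUT1, the widespread glucose carrier, and *Slc2a3* (ENSMUSG00000003153, chr6:122727809-122801640 of GRCm38, minus strand) encodes GLUT3, which has a high affinity for glucose. *Slc2a3* in macrophages was at 2.74, 2.58, 3.15 and 3.19 CPM in control, 12.6, 6.21 and 6.46 at 3 d and 18.6, 12.9 and 14.9 at 14 d. All macrophage libraries at both times lay above all 4 controls, and 3 d and 14 d did not overlap, although the lowest 14 d and the highest 3 d library differ by little. The log2 fold change was 1.53 ± 0.27, adjusted p = 0.012 at 3 d and 2.40 ± 0.28, adjusted p = 6.1e-06 at 14 d. At 3 d the call was lost without control replicate 1 or without 3 d replicate 1, which had the highest level (1.504 and 1.13). In monocytes the same gene was at 9.45, 11.7, 13.3 and 10.5 CPM in control, 7.72, 11.8, 12.4 and 7.91 at 3 d and 5.66, 2.66, 3.25 and 4.51 at 14 d. It fell at 14 d, where the groups did not overlap (-1.48 ± 0.27, adjusted p = 0.0025), and the 3 d difference was not called (-0.17 ± 0.26). *Slc2a1* in monocytes was at 81.5, 97.8, 75.6 and 87.5 CPM in control, 80.4, 63.3, 74.9 and 105 at 3 d and 147, 126, 164 and 158 at 14 d. Its 14 d libraries were all above the other 8 (0.80 ± 0.16, adjusted p = 0.0058). In macrophages *Slc2a1* was at 21.8, 70.7, 32.2 and 26.1 CPM in control, 93.9, 58.0 and 87.0 at 3 d and 94.9, 106 and 80.1 at 14 d. Control replicate 2 stood well above the other controls, within the range at 3 d and below every library at 14 d. The rise at 14 d was called (1.32 ± 0.36, adjusted p = 0.0084) and the 3 d difference was not (1.08 ± 0.36, adjusted p = 0.20).

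Of the hexokinases, which trap glucose as its phosphate, *Hk1* rose in macrophages at 14 d, while its lower call in monocytes was not kept. In macrophages it was at 22.8, 29.3, 37.5 and 26.6 CPM in control, 39.9, 31.7 and 38.0 at 3 d and 56.3, 53.1 and 52.2 at 14 d, with the 14 d libraries above all others (0.89 ± 0.16, adjusted p = 0.00026). In monocytes it was at 125, 124, 87.6 and 63.5 CPM in control, 63.1, 63.5, 50.2 and 78.7 at 3 d and 69.2, 49.9, 52.4 and 66.5 at 14 d, where control replicate 4 lay inside the range of both injury groups. The call of a lower level was not kept under other scalings at either time (-0.65 ± 0.22, adjusted p = 0.021 at 3 d, -0.75 ± 0.22, adjusted p = 0.045 at 14 d, and adjusted p = 0.059 with the replicate block). It held at 14 d in only 2 of 12 fits that left out 1 library, with log2 fold changes of -0.83 to -0.62 where it was lost. *Hk2*, the inducible form, was called lower in monocytes at 3 d only and not kept (-0.65 ± 0.15, adjusted p = 0.0034). *Hk3* was called against control in neither cell type at either time. *Gpi1*, the next enzyme, was at 515, 503, 615 and 591 CPM in control and 329, 402 and 309 at 14 d in macrophages (-0.68 ± 0.14, adjusted p = 0.00060), a call not kept.

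Phosphofructokinase commits sugar to glycolysis, and of its 3 subunit genes *Pfkm* rose in macrophages at 14 d. *Pfkm*, the form of muscle, was at 4.25, 2.66, 3.87 and 3.52 CPM in control, 3.15, 3.18 and 5.21 at 3 d and 11.8, 10.8 and 26.7 at 14 d. The 14 d libraries were all higher, and replicate 3 was more than the other two added together (2.19 ± 0.32, adjusted p = 4.9e-05). The gene shares 341 bases (10.2%) of its exons with the transcript Gm26513 on the same strand. *Pfkp*, the platelet form, was at 206, 226, 241 and 259 CPM in control and 112, 163 and 96.2 at 14 d, with no overlap (-0.91 ± 0.17, adjusted p = 0.00032), and that lower level was not kept under other scalings. *Pfkl*, the liver form, was at 121, 116, 121 and 96.7 CPM in control and 77.8, 67.2, 66.6 and 69.3 at 3 d in monocytes, again with no overlap (-0.69 ± 0.15, adjusted p = 0.0022) and not kept, and at -0.03 at 14 d.

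*Pfkfb3* and *Pfkfb4* make and remove fructose-2,6-bisphosphate, the activator of phosphofructokinase. *Pfkfb4* in macrophages was at 221, 205, 243 and 234 CPM in control and 131, 149 and 87.2 at 14 d, every 14 d library lower (-0.88 ± 0.17, adjusted p = 0.00037). In monocytes *Pfkfb4* was at 240.3, 276, 209 and 125 CPM in control, 140.4, 118, 108 and 173 at 3 d and 129, 116, 117 and 124 at 14 d, with control replicate 4 inside the range of both later groups. It was called lower at 3 d (-0.65 ± 0.21, adjusted p = 0.018) and at 14 d (-0.81 ± 0.21, adjusted p = 0.027, adjusted p = 0.053 with the replicate block). *Pfkfb3* in monocytes was at 34.4, 44.9, 28.4 and 35.4 CPM in control and 23.6, 27.0, 19.4 and 16.9 at 3 d (-0.72 ± 0.21, adjusted p = 0.011), a call lost without 3 d replicate 3 (-0.60, adjusted p = 0.063). None of these lower calls of *Pfkfb3* and *Pfkfb4* was kept under the 4 other scalings.

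Of the abundant enzymes from aldolase to pyruvate kinase, only *Pgk1* was called against control in macrophages with TMM. The rest ran from -0.47 (*Aldoc*) to 0.55 (*Pkm*) at 14 d on the log2 scale. All genes above a mean log2 CPM of 5 had a median of -0.56, so how far these enzymes moved depends on the scaling. *Pgk1*, phosphoglycerate kinase, makes the first ATP of the pathway and lies at chrX:106187100-106203699, plus strand (ENSMUSG00000062070). It was at 144, 179, 168 and 150.4 CPM in control, 213, 159 and 253 at 3 d and 362, 318 and 514 at 14 d in macrophages, with all 14 d libraries above the rest (1.31 ± 0.18, adjusted p = 2.8e-05). In monocytes *Pgk1* was at 184, 175, 180.3 and 181 CPM in control, 174, 144, 156 and 169 at 3 d and 207, 216, 260.3 and 224 at 14 d, higher in every 14 d library but under the 1.5-fold threshold (0.33 ± 0.12, adjusted p = 0.10). *Gapdh* is the enzyme before it and a common reference gene. In monocytes it was at 1102, 1159, 1401 and 1106 CPM in control, 1247, 1194, 1205 and 1048 at 3 d and 1666, 1887, 2169 and 1485 at 14 d, with the 14 d group above both others (0.60 ± 0.14, adjusted p = 0.012). That fold lies just past the threshold, the call was lost under other scalings and it held in 5 of 12 fits that left out 1 library (0.48 to 0.58 where lost). In macrophages *Gapdh* was at 1945, 2198, 2141 and 2164 CPM in control, 2825, 1773 and 2714 at 3 d and 1611, 2109 and 1368 at 14 d, with no call at either time (-0.32 ± 0.18 at 14 d).

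*Aldoa*, *Tpi1* and *Pgam1* had log2 fold changes of 0.53, 0.51 and 0.54 in monocytes at 14 d, with adjusted p of 0.037, 0.043 and 0.028, all short of 1.5-fold. *Eno1*, the main enolase, and *Pkm*, pyruvate kinase, were called in no contrast with control with TMM. *Pkm* in macrophages at 14 d was 0.55 higher on the log2 scale (adjusted p = 0.0063), also short of the fold. The summed level of 17 enzymes from hexokinase to lactate dehydrogenase was 6362 to 9198 CPM in monocyte controls, 7173 to 7548 at 3 d and 8954 to 11790 at 14 d. In macrophages the sums were 7103 to 8557, 6984 to 10086 and 6733 to 9060 CPM, so the groups overlapped.

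*Eno2*, the enolase of neurons, was near 0 in monocyte controls and present after injury. Its counts in monocytes were 0, 0, 3 and 2 counts in control, 25, 29, 51 and 13 at 3 d and 12, 52, 49 and 96 at 14 d. Control libraries held at most 3 counts, and every later library held 12 or more. It was called higher at both times (adjusted p = 0.0014 and 0.0013), and no fold is given against controls of 0 to 3 counts. Its mean log2 CPM in monocytes was under 1. Of all monocyte genes at that level, 66.6% were called higher at 3 d and 1.75% at 14 d. The monocyte 14 d level stayed low, at 0.557 to 3.87 CPM. In macrophages *Eno2* was at 1.23, 0.684, 1.18 and 1.06 CPM in control, 2.08, 1.55 and 1.46 at 3 d and 4.03, 4.28 and 5.07 at 14 d, with 14 d above all others (2.08 ± 0.36, adjusted p = 0.00018).

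**Figure D2:**
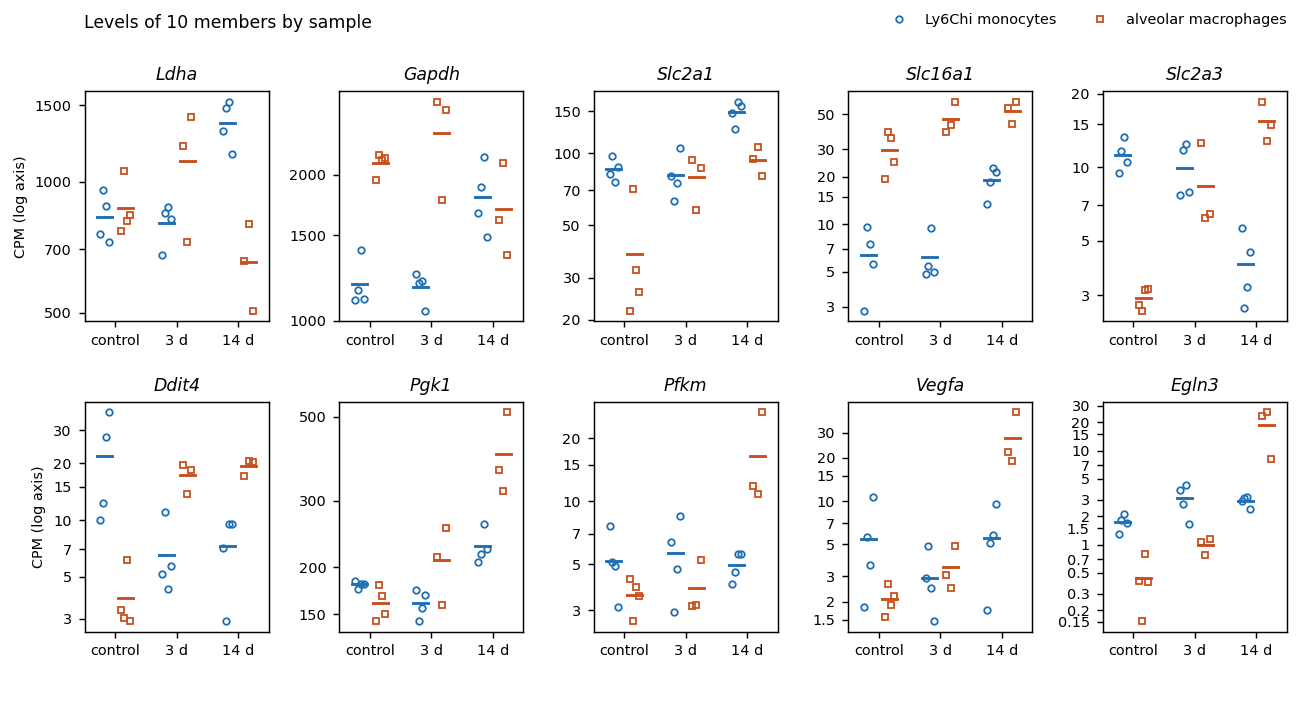
Levels of 10 members in each library (points, CPM on a log axis) by group, with circles for Ly6Chi monocytes, squares for alveolar macrophages and bars for group means. *Ldha* and *Gapdh* were called higher in monocytes at 14 d and not called in macrophages, while *Slc2a3* and *Ddit4* were higher in macrophages and lower in monocytes. The *Gapdh* call and the lower *Ddit4* call at 14 d were not kept under other scalings.

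At the lactate end, monocytes at 14 d had more of the enzyme and of 1 transporter, and less of the other. *Ldha* (ENSMUSG00000063229, chr7:46841475-46855627, plus strand), the lactate dehydrogenase subunit that favours lactate, was at 759, 957, 883 and 729 CPM in control, 678, 849, 875 and 822 at 3 d and 1308, 1476, 1529 and 1158 at 14 d in monocytes. Every 14 d library was above all 8 others (0.72 ± 0.14, adjusted p = 0.0035), and the call was kept. In macrophages *Ldha* was at 773, 1058, 814 and 838 CPM in control, 1210.5, 727 and 1407 at 3 d and 659.6, 799 and 505 at 14 d, with the groups overlapping and no call (-0.41, adjusted p = 0.094 at 14 d). *Slc16a1* encodes MCT1, which moves lactate either way. It was at 2.82, 9.57, 7.44 and 5.57 CPM in control, 4.79, 5.39, 9.51 and 4.99 at 3 d and 13.4, 18.5, 22.7 and 21.3 at 14 d in monocytes, and all 14 d libraries were higher (1.58 ± 0.34, adjusted p = 0.0086). In macrophages *Slc16a1* was at 19.4, 38.3, 35.5 and 25.0 CPM in control, 38.6, 42.4 and 59.6 at 3 d and 54.4, 43.2 and 60.0 at 14 d, with no overlap between 14 d and control (0.83 ± 0.22, adjusted p = 0.0039), and both calls were kept. *Slc16a3* encodes MCT4, the lactate exporter and a known HIF target. It was at 194, 224, 239.8 and 202 CPM in control, 127, 126, 105 and 98.8 at 3 d and 105, 98.7, 113 and 104 at 14 d in monocytes, with every library after injury far below every control (-0.91 ± 0.13, adjusted p = 0.00043 at 3 d, -1.04 ± 0.13, adjusted p = 0.00017 at 14 d). The fall at 14 d was kept and the 3 d call was not. In macrophages *Slc16a3* was not called at either time. *Pdk1*, the kinase that restrains pyruvate dehydrogenase, was called in no contrast with control (-0.47, adjusted p = 0.024 in macrophages at 14 d).

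Among members in macrophages, the largest log2 fold change was in an oxygen sensor. *Egln3* (ENSMUSG00000035105, chr12:54178981-54203860, minus strand, GRCm38) encodes PHD3, a prolyl hydroxylase that is itself induced by HIF. In macrophages its counts were 6, 2, 12 and 6 counts in control, 15, 10 and 11 at 3 d and 161, 204 and 48 at 14 d, which corresponds to 0.411, 0.152, 0.786 and 0.398 CPM in control, 1.07, 0.776 and 1.15 at 3 d and 23.2, 25.7 and 8.12 at 14 d. All 14 d libraries lay far above the 7 others, and replicate 3 was the lowest of them (5.39 ± 0.46, adjusted p = 6.7e-07). At 3 d the difference was not called (1.14 ± 0.53, adjusted p = 0.34). In monocytes *Egln3* was at 1.284, 1.83, 2.13 and 1.71 CPM in control, 3.86, 2.69, 4.30 and 1.65 at 3 d and 2.92, 3.11, 3.19 and 2.42 at 14 d, called higher at 3 d (0.84 ± 0.34, adjusted p = 0.046) but in only 3 of 12 fits that left out 1 library (0.68 to 0.92 where lost), and not called at 14 d (0.74 ± 0.34, adjusted p = 0.21). *Egln1*, encoding PHD2, the main sensor, was called in no contrast with control (0.02 in macrophages at 14 d). *Hif1a* itself was at 63.6, 108, 96.1 and 116 CPM in control, 84.6, 60.6, 73.8 and 44.9 at 3 d and 125, 171, 216 and 206 at 14 d in monocytes. All 14 d libraries were above all the others (0.90 ± 0.23, adjusted p = 0.025), and the call was kept, although it was lost in 4 of 12 fits that left out 1 library (control replicates 1 and 3, 14 d replicates 3 and 4, at 0.75 to 0.91). In macrophages *Hif1a* was at 101, 141, 100 and 86.9 CPM in control, 125, 115 and 114 at 3 d and 127, 135 and 84.7 at 14 d, with no call (0.11 at 14 d). These are transcript levels, and HIF-1α is mainly set at the protein.

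Among the other hypoxia response genes, *Vegfa* (ENSMUSG00000023951, chr17:46016993-46032369, minus strand), the vessel growth factor, rose in macrophages. It was at 1.57, 2.66, 1.90 and 2.19 CPM in control, 3.08, 2.48 and 4.90 at 3 d and 21.9, 18.9 and 41.6 at 14 d, so that each 14 d library was far above the other 7 (3.71 ± 0.32, adjusted p = 7.2e-07). The 3 d difference was not called (0.73 ± 0.33, adjusted p = 0.34). In monocytes *Vegfa* ran from 1.46 to 10.7 CPM over all 12 libraries with no call (0.03 at 14 d). *Ddit4* (ENSMUSG00000020108, chr10:59949669-59951834, minus strand) encodes REDD1, which restrains mTORC1 under low oxygen, low energy or glucocorticoid. It was at 3.36, 3.04, 6.16 and 2.92 CPM in control, 19.6, 13.8 and 18.4 at 3 d and 17.1, 20.5 and 20.3 at 14 d in macrophages. Both later groups were above all controls by a wide margin and overlapped each other (2.15 ± 0.25, adjusted p = 0.00051 at 3 d, 2.31 ± 0.26, adjusted p = 4.6e-06 at 14 d). In monocytes *Ddit4* was at 10.1, 12.4, 27.5 and 37.3 CPM in control, 5.16, 11.001, 4.30 and 5.69 at 3 d and 7.10, 2.91, 9.58 and 9.55 at 14 d. Its controls were widely spread and overlapped the 3 d group but not the 14 d group, and it was called lower at 3 d (-1.74 ± 0.46, adjusted p = 0.0071, kept) and at 14 d (-1.58 ± 0.46, adjusted p = 0.046, not kept, and adjusted p = 0.086 with the replicate block). The 14 d call held in 3 of 12 fits that left out 1 library (-1.76 to -1.18 where lost).

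*Ndrg1*, a stress response gene, was also higher at both times in macrophages, at 3.42, 4.79, 9.96 and 3.78 CPM in control, 17.8, 16.6 and 18.6 at 3 d and 17.3, 21.5 and 15.7 at 14 d. The later groups overlapped each other and lay above all controls (1.68 ± 0.30, adjusted p = 0.011 at 3 d, 1.73 ± 0.30, adjusted p = 0.00017 at 14 d). In monocytes *Ndrg1* was not called at 14 d (0.57 ± 0.29, adjusted p = 0.26), but was with the replicate block (0.61, adjusted p = 0.026). The mitophagy receptors *Bnip3* and *Bnip3l* split by cell type. *Bnip3* in monocytes was at 33.6, 30.3, 20.1 and 23.3 CPM in control, 27.2, 22.9, 22.8 and 24.7 at 3 d and 43.5, 43.9, 51.8 and 46.1 at 14 d, every 14 d library above the rest (0.79 ± 0.17, adjusted p = 0.0089), and the call was lost only without 14 d replicate 3 (0.72, adjusted p = 0.057). It shares 504 bases (22.3%) of its exons with Gm45507 on the opposite strand. *Bnip3l* in macrophages was at 366, 306, 375 and 389.8 CPM in control, 275, 335 and 238 at 3 d and 163, 179 and 124 at 14 d. The 14 d group was below all others (-1.21 ± 0.17, adjusted p = 2.6e-05), the only lower macrophage call that was kept. In monocytes *Bnip3l* was called lower at 3 d (-0.65 ± 0.13, adjusted p = 0.0019), which was not kept.

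The prolyl 4-hydroxylase subunits, which modify collagen, also split, with *P4ha1* lower and *P4ha2* higher in macrophages at 14 d. All genes of like level had medians of -0.56 and 2.96 there, so neither moved far from its level. *P4ha1* in monocytes was at 82.0, 74.1, 67.0 and 112 CPM in control, 26.6, 23.8, 36.4 and 55.2 at 3 d and 42.3, 42.3, 52.0 and 50.3 at 14 d. All later libraries were below all controls (-1.24 ± 0.25, adjusted p = 0.0016 at 3 d, kept, and -0.84 ± 0.24, adjusted p = 0.044 at 14 d, not kept). The 14 d call held in 3 of 12 fits that left out 1 library (-0.91 to -0.68 where lost). In macrophages *P4ha1* was at 64.6, 64.6, 66.2 and 71.2 CPM in control and 40.2, 40.1 and 42.9 at 14 d, with very little spread (-0.70 ± 0.12, adjusted p = 0.00016), and that call was not kept. *P4ha2* in macrophages was at 12, 3, 4 and 6 counts in control and 32, 12 and 28 at 14 d (3.03 ± 0.60, adjusted p = 0.00046). *Adm*, which encodes the vasodilator adrenomedullin, was at 1, 6, 6 and 1 counts in control and 8, 16 and 16 at 14 d (2.95 ± 0.93, adjusted p = 0.010). Fibroblast markers were also higher in the 14 d macrophage libraries, as given above, and their part in the *P4ha2* counts was not tested. *Ankrd37*, a compact HIF target, was at 1.10, 1.75, 1.05 and 0.332 CPM in control and 3.02, 2.52 and 1.86 at 14 d in macrophages (1.23 ± 0.52, adjusted p = 0.044), a call held in only 2 of 10 fits that left out 1 library (0.87 to 1.259 where lost). It was at 9.41, 10.3, 8.68 and 12.2 CPM in control and 6.26, 6.11, 7.52 and 2.82 at 3 d in monocytes (-0.84 ± 0.26, adjusted p = 0.016), not kept. It shares 349 bases (22.7%) of its exons with *Lrp2bp* on the opposite strand.

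**Figure D3:**
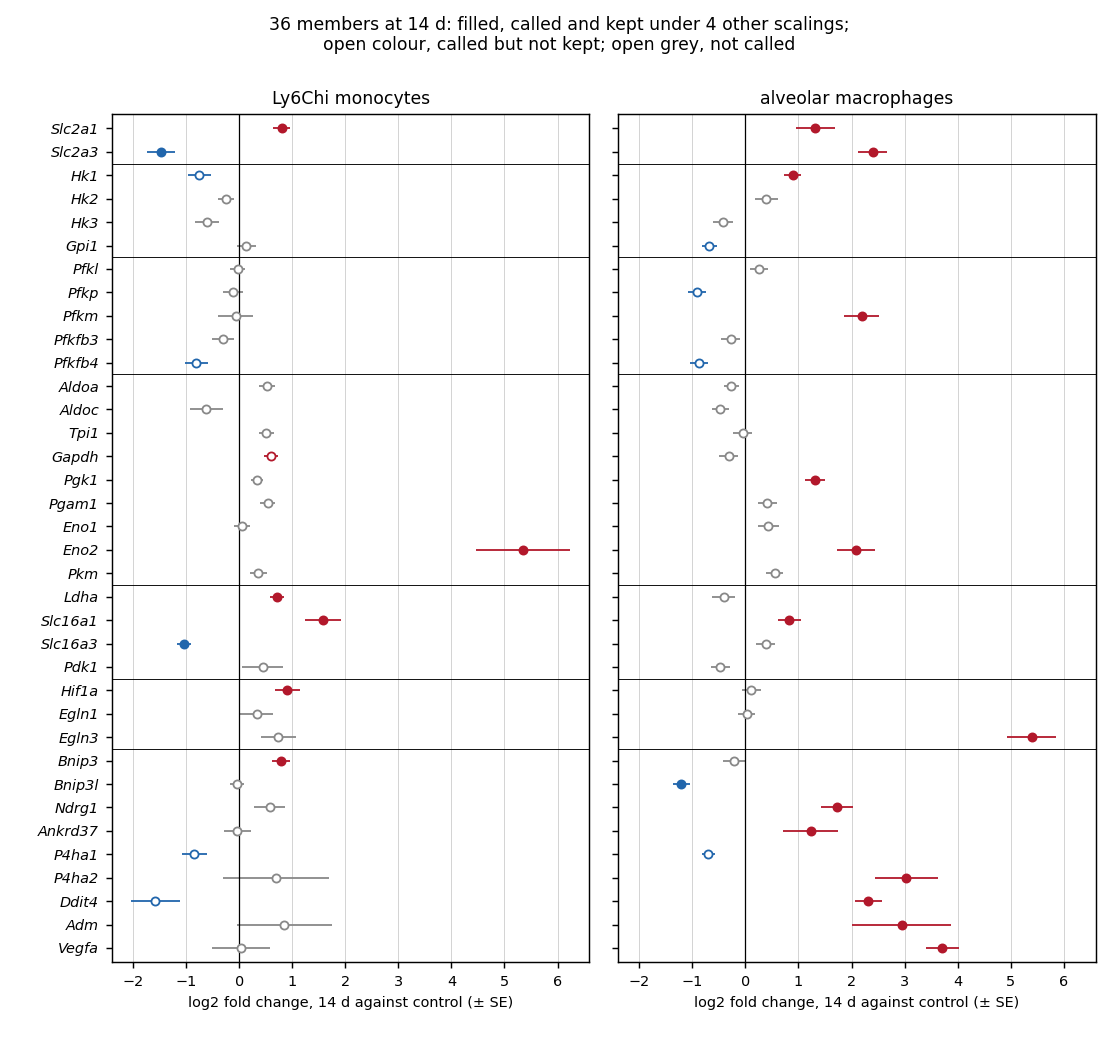
Log2 fold changes at 14 d against control for all 36 members in monocytes (left) and macrophages (right), points with standard errors as bars. Filled points passed the test and were kept under the 4 other scalings, open coloured points passed but were not kept, and grey points did not pass. In macrophages the 14 higher calls are all filled and 1 of the 5 lower calls is. The monocyte *Eno2* value depends on the prior count, its controls being at 0 to 3 counts.

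Members were set against genes of like level, since the groups differed in their weak genes. In macrophages at 14 d, the median log2 fold change of all genes was 2.96 below a mean log2 CPM of 1, 0.31 from 1 to 3, -0.38 from 3 to 5 and -0.56 above 5. *P4ha2* and *Adm* were 0.07 above and 0.01 below the median of the weakest band, and *Ankrd37* was 1.73 below it, so these 3 rose by about as much as the median weak gene, or less. *Egln3* was 2.43 above the median of its band, *Vegfa* 3.40, *Ddit4* 2.697, *Ndrg1* 2.11, *Slc2a3* 2.09, *Pfkm* 1.88 and *Eno2* 1.77. In the band above 5, 4 of 24 members were called higher, beside 4.27% of all genes of that level, and 5 lower, beside 47.8% (52% either way). A gene's level is its mean over all samples of the fit and so is raised by the group in which it is high.

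**Figure D4:**
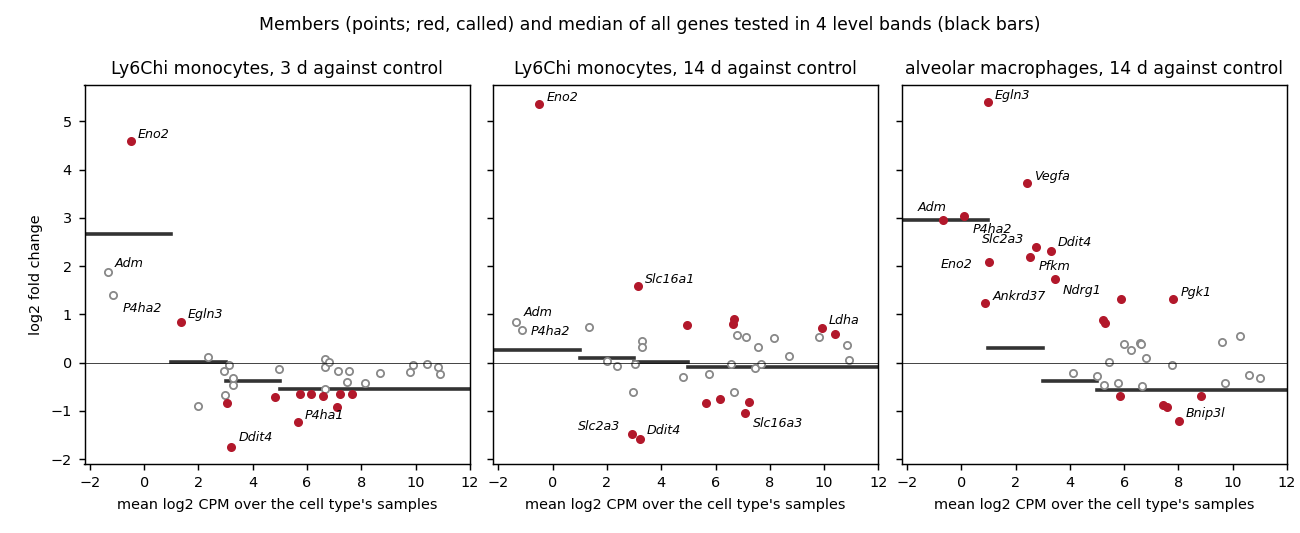
Log2 fold change of each member (points, red where called) against its mean log2 CPM over the cell type's libraries, with black bars for the median of all genes in 4 level bands. *Adm* and *P4ha2* sit on the bar in macrophages at 14 d, and *Egln3*, *Vegfa* and *Ddit4* lie more than 2 above it. Most lower calls in monocytes at 3 d lie near the bar of the abundant genes, and the height of the monocyte *Eno2* points depends on the prior count, since its controls held 0 to 3 counts.

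Between 3 d and 14 d, 12 members were higher and 2 lower in monocytes, beside 12% and 34.5% of all genes (46.5% either way), and by library size 2 were higher and 2 lower. Above a mean log2 CPM of 5, 9 of 21 members were higher, beside 29.7% of all genes of that level, and 1 lower, beside 2.74%. The higher calls of *Slc16a1* (1.62) and *Hif1a* (1.44) and the lower calls of *Slc2a3* (-1.30) and *Hk3* (-0.67) were kept. In macrophages 7 were higher and 6 lower, beside 36.3% and 20% (56.4% either way), and with TMM from abundant genes 15 were higher and 0 lower. The 7 higher calls were kept, led by *Egln3* (4.25 ± 0.48, adjusted p = 2.2e-05), *Vegfa* (2.99 ± 0.34, adjusted p = 2.6e-05) and *P4ha2* (2.32 ± 0.64, adjusted p = 0.0059). *Pfkm* (2.10), *Eno2* (1.38), *Pgk1* (0.93) and *Slc2a3* (0.86) were the others. Without 3 d replicate 2, *Pgk1* was no longer called (0.55), and *Slc2a3* was lost without 3 d replicate 2 or 3 or 14 d replicate 1 (0.45 to 0.67). *Ddit4*, *Ndrg1* and *Slc2a1* differed between 3 d and 14 d by 0.16, 0.05 and 0.24, and were not called. So *Ddit4* and *Ndrg1* were called higher from 3 d with no called step after it, *Egln3*, *Vegfa* and *Pfkm* had a called step between the times, and *Slc2a3* had both.

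The difference between cell types was tested as an interaction over all 22 libraries, with 26692 genes. At 14 d the change in macrophages exceeded that in monocytes for 8 members and fell short of it for 11, beside 16.9% and 19.9% of all genes (36.8% either way). With TMM from abundant genes the split was 14 and 3. The 8 were all kept: *Egln3* (4.30 ± 0.59, adjusted p = 9.8e-06), *Ddit4* (3.55 ± 0.60, adjusted p = 0.00014), *Slc2a3* (3.53 ± 0.40, adjusted p = 1.2e-06), *Vegfa* (3.37 ± 0.72, adjusted p = 0.0011), *Pfkm*, *Hk1*, *Slc16a3* and *Pgk1*. Of the 11, *Eno2*, *Ldha* (-1.47 ± 0.26, adjusted p = 0.00013) and *Bnip3l* (-1.52 ± 0.22, adjusted p = 1.7e-05) were kept. The lower interaction of *Eno2* rests on monocyte controls at 0 to 3 counts, so its size depends on the prior count. At 3 d there were 7 and 1 (beside 3.51% and 15.2%, 18.7% either way), of which *Ddit4* (3.71 ± 0.60, adjusted p = 0.00061), *Slc2a3* (1.53 ± 0.40, adjusted p = 0.012), *Ankrd37* (1.93 ± 0.52, adjusted p = 0.015), *Slc16a3* and, lower, *Eno2* were kept.

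Levels were then compared between forms of the same enzyme per kilobase of exon. Among hexokinases *Hk3* was the highest in control monocytes at 32.1 ± 10.9 CPM per kb (SD, n = 4), above *Hk1* at 11.7 ± 3.52 and *Hk2* at 11.1 ± 1.88, which did not differ beyond their spread. In control macrophages the order was *Hk3* (15.5 ± 0.901), *Hk2* (9.04 ± 2.82) and *Hk1* (3.40 ± 0.730). At 14 d in macrophages *Hk3* (11.6 ± 2.13, n = 3) and *Hk2* (11.9 ± 2.57) were level, above *Hk1* (6.31 ± 0.253). *Pfkp* was the highest phosphofructokinase in control macrophages (17.4 ± 1.69, against 11.3 ± 1.78 for *Pfkl* and 1.07 ± 0.203 for *Pfkm*). At 14 d *Pfkl* was at 13.5 ± 1.10, *Pfkp* at 9.26 ± 2.62 and *Pfkm* at 4.93 ± 2.66. *Eno1* exceeded *Eno2* in every group, at 165 ± 44.6 against 0.949 ± 0.115 CPM per kb in macrophages at 14 d, so the rise of *Eno2* was on a very small base. *Slc2a1* likewise stayed far above *Slc2a3* in macrophages at 14 d (26.8 ± 3.75 against 2.13 ± 0.401). *Egln3* passed from 0.164 ± 0.0983 CPM per kb in control macrophages to 7.14 ± 3.57 at 14 d, while *Egln1* was at 12.4 ± 1.71 and 12.7 ± 2.92.

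Other genes of these pathways were read from 5 lists. In macrophages at 14 d, 8 of 23 other glycolysis and gluconeogenesis genes tested were higher and 4 lower (median 0.33), no more than the 39.4% and 22.9% of all genes tested. All 8 higher calls were kept, *Pcx* among them (1.71), which makes oxaloacetate from pyruvate. *Tigar* (-1.42), which lowers fructose-2,6-bisphosphate, fell and was kept. Of 27 genes of pyruvate entry and the tricarboxylic acid cycle, 1 was higher and 9 lower (median -0.47, against -0.56 over all genes above a mean log2 CPM of 5), and 2 of the 9 lower calls were kept. *Mpc2*, a subunit of the mitochondrial pyruvate carrier, was one of them (-1.35, adjusted p = 2.9e-06), and *Idh3a* was the gene that rose (0.96). The pentose phosphate list had 3 lower of 9, with 0 kept. Of 14 HIF regulators 2 were higher, and of 28 other hypoxia-inducible genes 8 were higher and 11 lower (median -0.19, beside 62.3% of all genes called either way), of which all 8 and 3 were kept. *Angptl4* (-1.56), a lipase inhibitor, and *Rora* (-1.53), a nuclear receptor, were lower and kept. At 3 d in macrophages 1 gene of the 5 lists was called, the HIF-2α gene *Epas1* (0.87, adjusted p = 0.030, kept).

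In monocytes at 14 d the same lists had 1 higher and 1 lower of 23, 2 higher of 9 pentose phosphate genes, 1 lower of 27, 1 lower of 14 and, of 26 other hypoxia-inducible genes, 4 higher and 1 lower, beside 3.22% of all genes called higher and 5.34% lower. *Hilpda* (1.54, adjusted p = 0.012), a lipid droplet protein, *Mif* (1.18, adjusted p = 0.0051), a cytokine, and *Hmox1* (0.89, adjusted p = 0.0019), haem oxygenase, rose and were kept. *Eno3*, the muscle enolase, fell (-3.64, adjusted p = 4.0e-05), from a mean of 153 CPM in control to 12.3, and was kept. At 3 d in monocytes the lists had 6 higher and 3 lower, 1 and 1, 5 lower, 2 higher and 6 lower, and 3 and 3, in the same order, beside 36.8% and 14.4% of all genes, so 4 of the 5 lists had a smaller share called than the 51.2% of all genes. Of those lower calls only *Eno3* (-1.97) was kept. The interaction at 14 d was called for *Hilpda* (-3.02) and for both subunits of the pyruvate carrier, *Mpc1* (-1.88) and *Mpc2* (-1.51), with macrophages the lower, and for *Eno3* (3.53), and all 4 were kept.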

How the data were processed

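RNA was sequenced as paired ends after oligo(dT) selection, and the deposited tables hold unnormalised counts per gene, 1 table per cell type. Per the labels, the authors' processing notes name STAR, featureCounts, DESeq2 and GRCm38/mm10. The strand setting and the annotation release are not given in the sources used here.

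Counts were fitted with edgeR 4.0.16 (robust quasi-likelihood, TMM, filterByExpr), separately in each cell type over its 3 groups, and p-values were adjusted by Benjamini-Hochberg across every gene in the fit. The interaction was fitted over the 22 samples and genes in both tables. Standard errors are the log2 fold change over the square root of F. Folds use edgeR's default prior count, and a prior count of 2 was used only for the mean log2 CPM. Levels are CPM with TMM factors, and levels per kb divide by exonic length. A floor of 3 counts was 0.121 to 0.161 CPM in monocytes and 0.197 to 0.507 in macrophages, for counting error only.

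The members and the lists were chosen with earlier results of these data known. Values by sample with full statistics were given, for each contrast with control, to the called members with a mean log2 CPM above 3 and the largest changes (up to 6 in each direction) and to the members with the largest called interactions. Other members whose values are given by sample were added after their values were seen. Up to 3 called genes per pathway list were named by the same level rule, and *Eno3*, *Hilpda*, *Mpc1* and *Mpc2* were added for the interaction.

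Same-numbered samples deviated together only in monocytes between control and 14 d (r = 0.120 to 0.486 for the 4 numbers, over 22159 genes), where the block is therefore given beside the result. No 2 libraries were duplicates. Simulated counts were used only for the 14 d contrasts with control and the 14 d interaction, in edgeR and DESeq2 at their main settings. The remaining contrasts and settings were not simulated, nor was the shift of weakly expressed genes. No outcome of the simulation is given here. The alternatives were DESeq2 1.42.0, 4 other scalings, a stricter filter and no filter, a replicate block, adjusted p alone, only the groups compared, and each library left out in turn.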

Additional observations from a re-analysis of the deposited data

Results flagged for a closer look

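A sample stood apart from the rest of its group, by Dixon's test, in 4 of 144 groups tested, and chance alone gives about 1 in 20. A group here is 1 member in 1 set of 4 libraries. Macrophages at 3 d and 14 d (n = 3 each) were not tested. *Gpi1* was lowest in monocyte control replicate 4, at 311.4 CPM, and *Pgam1* was lowest in the same library, at 121.4 CPM. *Slc16a1* was highest in monocyte 3 d replicate 3, at 9.51 CPM. *Ddit4* was highest in macrophage control replicate 3, at 6.16 CPM.

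The change from control differed between cell types, by the interaction test in edgeR, for 8 members at 3 d and 19 at 14 d. Values are the log2 change in macrophages minus that in monocytes, and no explanation was tested. At 3 d, *Ddit4* differed by 3.71, *Ankrd37* by 1.93, *Slc2a3* by 1.53, *Ndrg1* by 1.47, *P4ha1* by 1.03, *Slc16a3* by 0.96, *Hk2* by 0.95 and *Eno2* by -4.03, a size that depends on the prior count because its monocyte controls held 0 to 3 counts. The calls of *Hk2*, *Ndrg1* and *P4ha1* were not kept under other scalings.

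At 14 d, the genes with the higher change in macrophages were *Egln3* (4.30), *Ddit4* (3.55), *Slc2a3* (3.53), *Vegfa* (3.37), *Pfkm* (1.92), *Hk1* (1.29), *Slc16a3* (1.07) and *Pgk1* (0.64). *Eno2* (-3.58), *Bnip3l* (-1.52) and *Ldha* (-1.47) had the lower change in macrophages under all 4 other scalings too. *Bnip3* (-1.35), *Gapdh* (-1.26), *Pdk1* (-1.25), *Gpi1* (-1.17), *Pfkp* (-1.15), *Aldoa* (-1.14), *Hif1a* (-1.13) and *Tpi1* (-0.91) had it with TMM and lost the call under at least 1 other scaling.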

How the results depend on the processing

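The count of members called in monocytes at 3 d (12) was 5 by library size, 5 by upper quartile, 7 by DESeq2's median ratio as scaling, 6 with TMM from abundant genes, 2 with a mean log2 CPM above 1 required (33 members tested) and 7 with only the groups compared. From 3 d to 14 d in monocytes (14) it was 4, 4, 9, 5 and 4 under the first 5 of these and 9 by DESeq2. In macrophages from 3 d to 14 d (13) it was 8 with the stricter filter. The 3 d interaction (8) was 5 by library size, 5 with TMM from abundant genes and 4 with the stricter filter. The 14 d interaction of *Pfkl*, not called, turned to a called 0.62 by library size and 0.74 with TMM from abundant genes, and that of *Pkm* to 0.63 with the latter. With 1 library left out, counts ran from 7 to 13 in monocytes at 3 d (7 without 3 d replicate 3), 6 to 12 at 14 d (8 without control replicate 1 or 14 d replicate 2, 6 without 14 d replicate 3), 2 to 6 in macrophages at 3 d (2 without control replicate 1, 6 without 3 d replicate 2) and 5 to 10 for the 3 d interaction (5 without macrophage 3 d replicate 1). In macrophages at 14 d they ran from 18 to 22. Among settings other than leaving out a library, 2443 values stayed on their side of the threshold, 221 lost a call, 110 gained one and 3 reversed. With the replicate block, counts were 11 and 11 in monocytes at 3 d and 14 d, 3 and 18 in macrophages, and 8 and 18 for the interactions. The sources state no pairing by replicate number, and same-numbered samples deviated together only between monocyte control and 14 d. In that contrast, with the block, *Hk1*, *Pfkfb4* and *Ddit4* lost the call and *Ndrg1* gained it. The median log2 change of all genes moved, with TMM from abundant genes, from -0.26 to -0.72 in monocytes and from 0.16 to 0.65 in macrophages between 3 d and 14 d, and from -0.63 to -0.93 and from 0.48 to 1.27 for the interactions at 3 d and 14 d. The share of all calls that were higher moved from 25.8% to 4.32%, from 64.5% to 89.6%, from 18.7% to 6.77% and from 45.9% to 86.0%, and in monocytes at 14 d from 37.6% to 48.6% by library size. The cause of these moves was not tested. Macrophage libraries at 14 d were the shallowest, which limits *Adm*, *P4ha2* and *Egln3*.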
